A study of Mus musculus with 8 samples.

Results

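Mitochondrial fatty acid oxidation was described here through 9 genes in the livers of Ames dwarf mice: the carnitine shuttle genes Cpt1a, Cpt2 and Slc25a20, the acyl-CoA dehydrogenase genes Acadm, Acadl and Acadvl, the trifunctional protein genes Hadha and Hadhb, and the thiolase gene Acaa2. The members were chosen by gene symbol, as all probe sets that carried 1 of these symbols and no other in the platform annotation. Of the 9 genes, 8 had such a probe set, with 10 probe sets among the 12488 of the array, and Hadha had none. The signal needed for testing, a mean above the median of all non-control probe sets (an intensity of 162), was reached by 7 probe sets for 7 genes, among 4819 genes tested in all. Although ketone body synthesis belongs to the same pathway, no member encodes an enzyme of it, so the values below are those of fatty acid oxidation. Of 5 listed genes of ketone body metabolism, 1 was named in the annotation, Oxct1, an enzyme of ketone body use that liver is known to lack, at 11.1 to 104, below the signal needed for testing in all 8 livers.

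The samples were 8 livers of female mice homozygous for the Ames dwarf mutation (df/df), aged 24 to 26 months, that were fed standard pellets without restriction. The mutation stops the pituitary from making several of its hormones, growth hormone among them. All 8 samples formed 1 group, with no normal-sized littermates and no restricted diet analysed here, so the question that the data allowed was how the genes varied between livers of this 1 kind. Each liver had its own Affymetrix mouse U74Av2 array, and the deposited value was 1 intensity per probe set on a linear scale. The labels do not say outright that each sample came from a different mouse, so p-values measure the spread between these samples.

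Long-chain fatty acids cannot cross the inner mitochondrial membrane as acyl-CoA. Carnitine palmitoyltransferase 1 on the outer membrane exchanges CoA for carnitine, a carrier takes the acylcarnitine across, and carnitine palmitoyltransferase 2 restores the acyl-CoA inside. Acyl-CoA dehydrogenases of different chain-length preference then start each round of beta-oxidation, and the trifunctional protein and a thiolase complete it. In the fasting liver the acetyl-CoA made in this way feeds ketone body synthesis, and the nuclear receptor PPAR-alpha is known to raise the expression of these genes.

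The arrays had almost equal trimmed means as deposited (a spread of 0.00896%), so likeness in overall signal is not a result here. Pearson's r between arrays was 0.907 to 0.973 over the 28 pairs of arrays, across the 6211 tested probe sets, which do not count as replicates. Median intensity was lowest in liver 3 (155) and highest in livers 8 (180.2) and 4 (177), and lay between 164 and 168 in the 5 other livers. The spike-in controls had mean log2 signals of 10.70 to 10.88 on arrays 1 to 4 and 10.18 to 10.46 on arrays 5 to 8. Relations between members are therefore also given within these arrays, although the labels name no batch. The ratio of 3′ to 5′ control signal for Pcx was 8.81 on array 2, 6.04 on array 3 and 2.93 to 4.69 on the others. That ratio was 0.806 to 0.969 for Gapdh and 1.24 to 1.74 for Actb. The part of these ratios in the members' values was not tested. Markers of hepatocytes such as Alb, albumin, were bright in all livers (25309.5 to 37059). The summed signal of 9 tested macrophage and Kupffer cell genes was 21225 in liver 4 and 15303 in liver 8, and between 4843 and 9597 in the others. Summed signals were 569 to 892 for 2 lymphocyte genes and 953 to 1748 for 4 endothelial genes. They were 2115 to 2760.5 for 4 stellate cell genes, 610.2 to 1388 for 1 adipocyte gene and 135 to 258.5 for 1 muscle gene. No bile duct cell gene reached the signal for testing. The stellate cell genes differed, as Col1a1 (806) and Col3a1 (454) were highest in liver 4 and Col1a2 (1312.5) and Des (139) lowest there. Of the 2 tested lymphocyte genes, Cd79a was highest in liver 2 (379) and Ighm in liver 4 (529). Cd3e and Ptprc, on average below the signal for testing, were also highest in liver 4 (224 and 436). Cd8a and Cd3g, highest in livers 2 and 8, were below it in all livers.

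The 3 genes of the carnitine shuttle were lowest in livers 4 and 8. Cpt1a, the liver form of the transferase that is regarded as the rate-setting step, had intensities from 5516 in liver 8 through a median of 6371 to 7774 in liver 3, with a mean of 6441 ± 839 (SD, n = 8). This 1.41-fold range was the narrowest of the 7 tested members, and livers 8, 4 and 1 lay within 5516 to 5686. Slc25a20, the carnitine-acylcarnitine carrier, ranged 1.84-fold, from 1776 in liver 4 through a median of 2395 to 3266 in liver 3 (2395 ± 469, SD, n = 8). Cpt2, the transferase on the inner membrane, also ranged 1.84-fold, from 3136 in liver 4 through a median of 4663 to 5779 in liver 5 (4516 ± 824, SD, n = 8). Unlike Cpt1a and Slc25a20, Cpt2 was not high in liver 3, where its 4089 was the lowest value after those of livers 4 and 8. A second Cpt2 probe set gave 1.4 to 7.6, under the floor of 11.2 in all livers, and so carried no information on the gene.

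Acadl and Acadm, the acyl-CoA dehydrogenase genes that could be read, had the largest SDs of the tested members on the log2 scale (0.40 and 0.33), and both were low in liver 5. Acadl, the long-chain enzyme, ranged 2.28-fold, from 716 in liver 5 through a median of 1165 to 1629.9 in liver 7 (1220.2 ± 317, SD, n = 8). Livers 2, 6 and 7 were high for Acadl, at 1438 to 1629.9, and the other 4 besides liver 5 lay between 965 and 1185. Acadm, the medium-chain enzyme, ranged 1.77-fold, from 3967 in liver 8 through a median of 5213 to 7034.5 in liver 3 (5393.5 ± 1213, SD, n = 8). For Acadm, livers 8, 5 and 4 were low (3967 to 4320.2) and livers 2, 7 and 3 were high (6573 to 7034.5), with livers 1 and 6 in between. In liver 5, where these genes were low, Cpt2 had its highest value and Cpt1a and Slc25a20 their second highest. Liver 5 was often extreme, with the highest signal for 19.5% and the lowest for 16.0% of the 4819 tested genes. Acadvl, the very long-chain enzyme, had 2 probe sets at 3.6 to 28.2 and at 2.2 to 18.8, none of them above the signal for testing in any liver, so its level is not known here. A low signal does not show that a transcript is absent.

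The genes of the last steps were the most uniform after Cpt1a. Hadhb, the beta subunit of the trifunctional protein, which holds its thiolase activity, ranged 1.53-fold, from 2948 in liver 4 through a median of 3951 to 4518 in liver 3 (3872 ± 533, SD, n = 8). Acaa2, the mitochondrial 3-ketoacyl-CoA thiolase, ranged 1.52-fold, from 16483 in liver 8 through a median of 20058 to 25012 in liver 3 (20540.2 ± 3009.6, SD, n = 8). In both genes livers 4 and 8 held the lowest signals and livers 3 and 5 were among the 3 highest. The scanner's upper limit is not given in the sources used here, so a ceiling on the signal of Acaa2 was not tested.

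**Figure D1:**
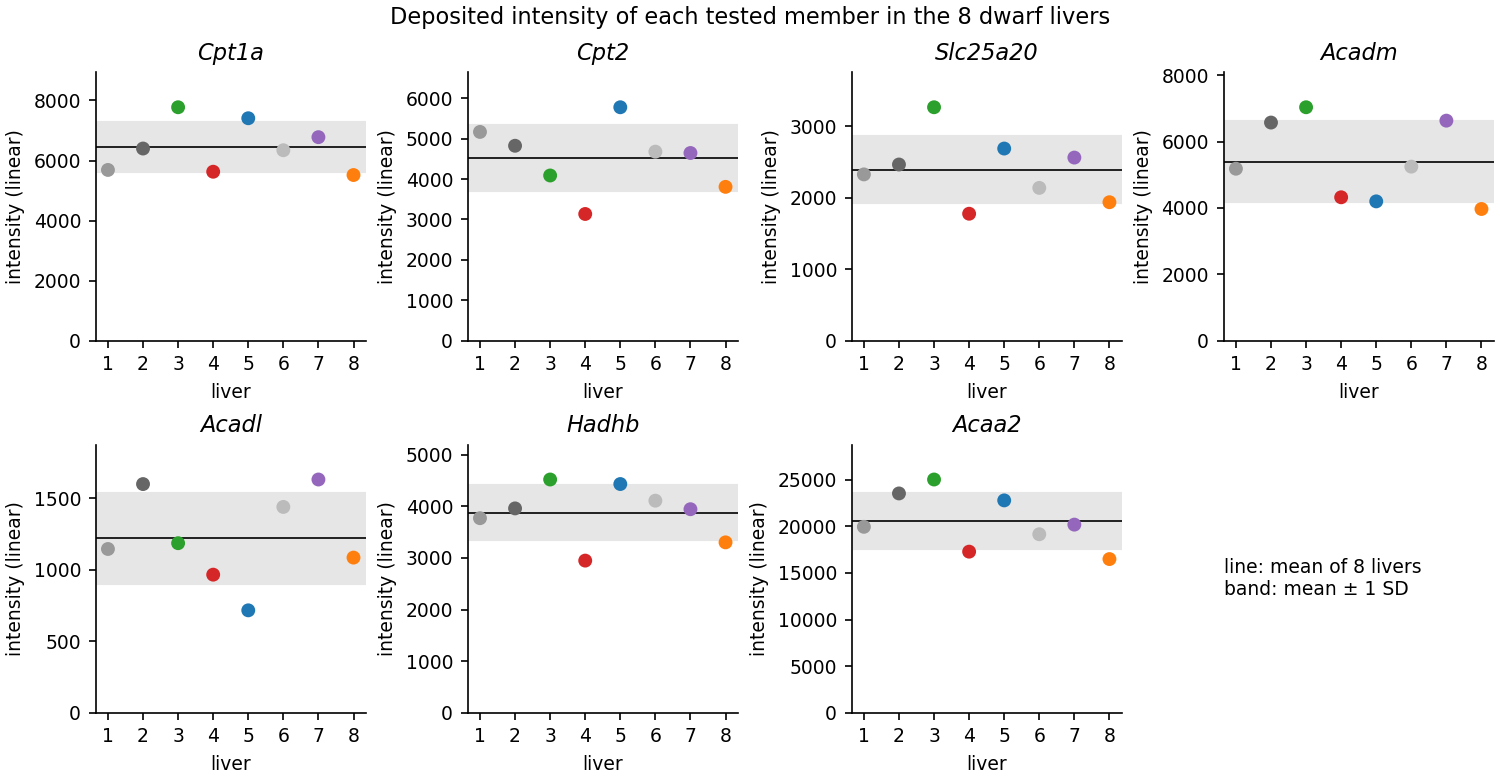
Deposited intensity (linear axis from 0) of each of the 7 tested members in livers 1 to 8, with the mean as a line and 1 SD as a grey band. Livers 4 and 8 hold the lowest values for Cpt1a, Cpt2, Slc25a20, Hadhb and Acaa2, whereas liver 5 is lowest for Acadl and next to lowest for Acadm.

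Livers 4 and 8 held the lowest pair of signals for 5 of the 7 members, against 11.5% of the 4819 tested genes and 21.1% of the 1222 tested genes within the members' range of mean signal. Liver 3 was highest for 5 of 7 members, against 11.4% of all tested genes and 19.5% of those 1222. With arrays scaled to a common median, the first count was 6 of 7 (21.6% of all tested genes) and the second 5 of 7 (21.9%). After quantile normalization the first was 4 of 7 (12.9%), and the second 1 of 7 (12.1%), Slc25a20. They are counts over genes chosen for their pathway, not tests. The summed macrophage signal and the median intensity of the array, given above, were also highest in livers 4 and 8, and 4 of the 5 tested hepatocyte markers, Alb, Apoa1, Tat and Cps1, were highest in liver 3, while Ttr was highest in liver 1. The summed hepatocyte signal was lowest in livers 6 (84918) and 4 (85508) and reached 92503 in liver 8. The part of these measures in the members' values was not tested. In whole liver RNA, fewer hepatocytes and less of a transcript in each hepatocyte cannot be told apart.

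The promoter windows of the members that are described together below are shown because they are the regulatory sequence nearest to each gene. The windows run from 250 bases before to 50 bases after the start of the gene, 5′ to 3′ on the gene's strand, and were taken from RefSeq (GRCm38.p6), where 8 of the 9 members matched by symbol. Capitals mark the half-site of nuclear receptors such as PPAR-alpha and its partner RXR, AGGTCA or its reverse complement TGACCT. The Cpt1a window is chr19:3323051-3323350 on the plus strand, Slc25a20 is chr9:108661886-108662185 (plus), Hadhb is chr5:30155003-30155302 (plus), Acadm is chr3:153944594-153944893 (minus) and Acadl is chr1:66863260-66863559 (minus).
Cpt1a: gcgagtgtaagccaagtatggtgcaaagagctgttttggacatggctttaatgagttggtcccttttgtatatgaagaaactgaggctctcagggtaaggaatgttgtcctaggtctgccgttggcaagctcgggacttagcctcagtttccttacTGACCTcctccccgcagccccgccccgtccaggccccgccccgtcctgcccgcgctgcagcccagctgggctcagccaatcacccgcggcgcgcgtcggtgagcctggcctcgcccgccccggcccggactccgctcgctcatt
Slc25a20: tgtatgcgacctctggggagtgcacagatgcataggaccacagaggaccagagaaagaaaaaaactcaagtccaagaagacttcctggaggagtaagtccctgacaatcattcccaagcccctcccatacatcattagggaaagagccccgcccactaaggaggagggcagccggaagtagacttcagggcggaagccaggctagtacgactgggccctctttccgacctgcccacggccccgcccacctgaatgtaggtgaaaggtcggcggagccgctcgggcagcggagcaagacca
Hadhb: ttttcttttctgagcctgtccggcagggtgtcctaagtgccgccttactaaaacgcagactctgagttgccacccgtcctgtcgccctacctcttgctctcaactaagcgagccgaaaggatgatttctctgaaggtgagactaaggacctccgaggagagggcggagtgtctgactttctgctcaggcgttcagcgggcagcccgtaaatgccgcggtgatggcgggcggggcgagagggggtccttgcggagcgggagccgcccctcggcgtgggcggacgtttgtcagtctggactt
Acadm: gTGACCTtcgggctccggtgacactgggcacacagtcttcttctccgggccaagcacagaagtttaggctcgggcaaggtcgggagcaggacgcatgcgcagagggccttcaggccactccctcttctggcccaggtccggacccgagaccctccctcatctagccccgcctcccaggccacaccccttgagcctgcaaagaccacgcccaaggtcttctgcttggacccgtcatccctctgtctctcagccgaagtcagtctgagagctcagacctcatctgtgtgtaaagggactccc
Acadl: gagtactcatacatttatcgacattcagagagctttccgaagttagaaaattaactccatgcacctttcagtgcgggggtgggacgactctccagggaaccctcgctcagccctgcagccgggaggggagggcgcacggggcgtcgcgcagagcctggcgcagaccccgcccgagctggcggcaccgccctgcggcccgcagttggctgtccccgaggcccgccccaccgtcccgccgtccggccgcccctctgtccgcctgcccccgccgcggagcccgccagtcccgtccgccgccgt

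A half-site was found in 3 of the 8 members' windows, once each in Cpt1a, Acadm and Acadvl, and in 16.3% of 32851 windows of the same length. The match lay 94 bases before the start in Cpt1a, 249 bases before it in Acadm and 87 bases before it in Acadvl, which is not shown. The direct repeat AGGTCANAGGTCA, searched on both strands, was in 0 of 8 windows and in 0.0396% of all, and the related sequence TCAAGGTCA, which also contains the half-site, was in 0 of 8 and in 0.423% of all. The GC box GGGCGG was in 6 of 8 windows (35.7% of all), TATAAA in 0 of 8 (13.6% of all) and CCAAT in 1 of 8 (37.4% of all), that of Cpt1a. The start sites of Hadha and Hadhb lie 273 bases apart on opposite strands, so their windows share 228 bases and are not separate counts. A match describes letters within 300 bases only.

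Of the tested members, Acadl alone passed a test for varying between livers more than genes of like signal. In the typical-variance test, the variance of a probe set's log2 intensity over the 8 livers is set against the usual variance at its mean signal, with a chi-square distribution and Benjamini-Hochberg adjustment over the 6211 tested probe sets. This test called 1 of the 7 members, Acadl (SD 0.40 on the log2 scale, 1.77 times the typical 0.23, adjusted p = 0.0263), and 11.3% of all tested probe sets, so 1 of 7 is near the background. Acadm came next (SD 0.33, adjusted p = 0.154), followed by Cpt2 (SD 0.28, adjusted p = 0.513) and Slc25a20 (SD 0.28, adjusted p = 0.567). Hadhb, Acaa2 and Cpt1a had SDs of 0.21, 0.21 and 0.19, within 0.879 to 1.09 times the typical value. The median SD was 0.28 over the members, 0.24 over all tested probe sets and 0.21 over the 1507 tested probe sets within the members' range of mean signal. The Acadl call was lost without liver 2 (adjusted p = 0.0873), liver 5 (0.431) or liver 7 (0.12), and liver 5 held its lowest value.

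The stricter limma test, which sets each variance against the spread of variances among probe sets, called 0 of 7 members (smallest adjusted p = 0.87, Acadl). It called 0% of the 6211 tested probe sets, while 6.84% of them and 0 of the 7 members had an unadjusted p under 0.05. Simulated data with the spread of variances seen here gave this test little power, so its count of 0 does not show that the variances were alike.

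**Figure D2:**
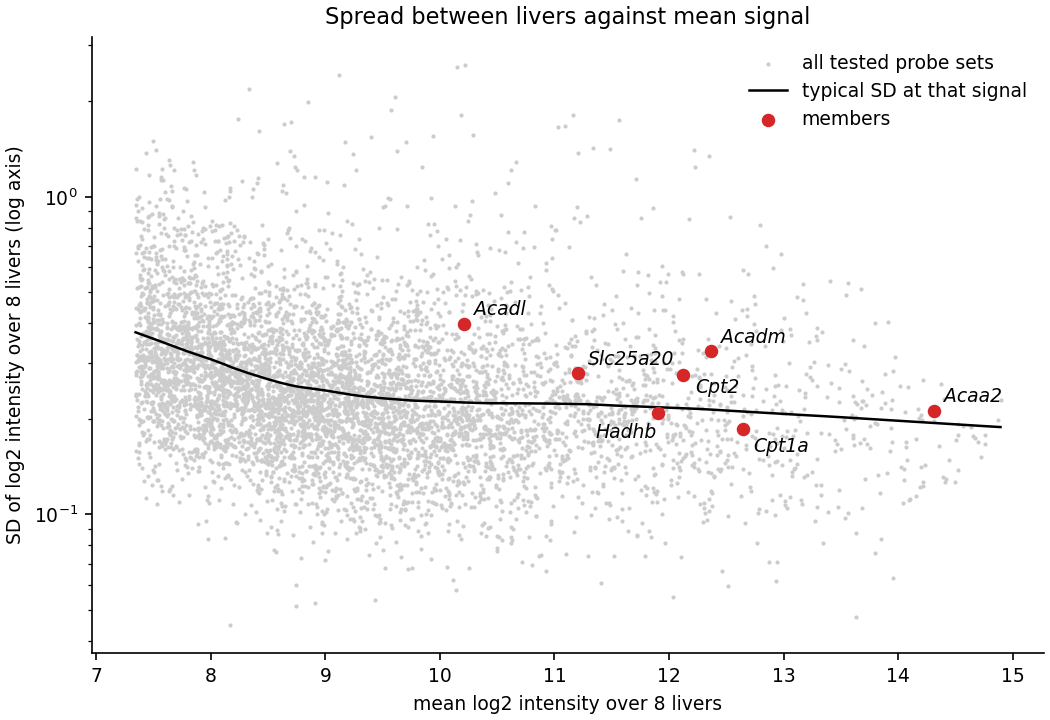
SD of log2 intensity over the 8 livers (log axis) against mean log2 intensity for the 6211 tested probe sets (grey), with the typical SD at each signal (line) and the 7 tested members (red). Acadl lies farthest above the line, at an SD of 0.40, while Cpt1a and Hadhb lie below it.

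Cpt1a, Slc25a20, Hadhb and Acaa2 had similar orders of livers, less closely for Hadhb, and they made up every pair of members that passed the test. Of the 21 pairs of tested members, 6 were positively correlated across the 8 livers after adjustment over the 21 (Pearson's r of log2 intensity, exact two-sided permutation test), and these were the 6 pairs that the 4 genes form. Their r ran from 0.841 to 0.914, with adjusted p from 0.0212 to 0.0372 by exact permutation. The closest pair was the carrier and the thiolase, Slc25a20 and Acaa2 (r = 0.914, exact permutation p = 0.00179, adjusted p = 0.0212, rho = 0.905). For Cpt1a and Slc25a20, which act one after the other in the shuttle, r was 0.897 (exact permutation p = 0.00243, adjusted p = 0.0212) and rho 0.952. For comparison, 0.973% of all pairs of the 4819 tested genes, and 1.91% of pairs within the members' range of signal, reached an r of at least 0.841, and the median r was 0.545 over the 21 member pairs and 0.005 over all gene pairs. By Spearman's rho, 4 of the 6 pairs passed after adjustment, with exact permutation p of 0.00114 to 0.00724. The pairs of Hadhb with Slc25a20 (rho = 0.833) and with Acaa2 (rho = 0.786) did not. Liver 6 lay above the median for Hadhb (4108) and below it for Cpt1a, Slc25a20 and Acaa2.

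These 6 correlations were positive in each subset of livers that was examined. The pairs had been picked for their r over the same livers, so positive values in the subsets are a description and not a separate test. Without the 2 livers farthest from the median of the first gene of the pair, r lay between 0.644 and 0.87. Without livers 4 and 8 it lay between 0.644 and 0.921, and none of the 21 pairs passed. Centred within arrays 1 to 4 and 5 to 8, r was 0.863 to 0.947, and it was 0.829 to 0.98 within arrays 1 to 4 and 0.796 to 0.997 within arrays 5 to 8. With any single liver left out, r of the 6 pairs stayed between 0.761 and 0.965, but which pairs passed depended on the liver. None of the 21 passed without liver 4 (r of the 6 pairs 0.809 to 0.917) or without liver 8 (0.795 to 0.91), and without liver 7 the 3 pairs of Slc25a20 with Cpt1a, Hadhb and Acaa2 did. Without liver 3 the called pairs were those of Cpt2 with Slc25a20 and with Hadhb. For Cpt2 with Hadhb the adjusted p by exact permutation was 0.05, at the threshold itself. The adjusted p of the 6 pairs was then 0.0514 to 0.106 by exact permutation. Without liver 5 again 6 pairs passed, of which 3 were among the 6 and the others were those of Acadm with Cpt1a, Slc25a20 and Acaa2. After quantile normalization, r of the 6 pairs was 0.661 to 0.879 and only Cpt1a with Hadhb was called. There the pairs of Acaa2 with Cpt1a, Slc25a20 and Hadhb fell into separate clusters and were not tested. The pairs of Slc25a20 with Cpt1a and with Hadhb did not pass (adjusted p = 0.055 for each, exact permutation).

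For Acadm and Acadl, r was 0.732 (exact permutation p = 0.0369, adjusted p = 0.0969, rho = 0.786), which did not pass after adjustment, and it was 0.759 without livers 4 and 8 and 0.924 without livers 3 and 8, the farthest from the median of Acadm. Acadl was not detectably related to the 5 other tested members, with r from -0.05 to 0.10 (exact permutation p of 0.81 to 0.983), and without livers 4 and 8 all 5 of these r were negative (-0.63 to -0.27). Without liver 5 alone, where Acadl was lowest, the 5 values were positive, from 0.436 with Slc25a20 to 0.701 with Cpt2. With the 2 livers farthest from the median of the first gene left out, they ran from -0.14 to 0.948. Acadm had r of 0.52 to 0.67 with Cpt1a, Slc25a20, Hadhb and Acaa2, none of which passed (exact permutation p of 0.0652 to 0.182).

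**Figure D3:**
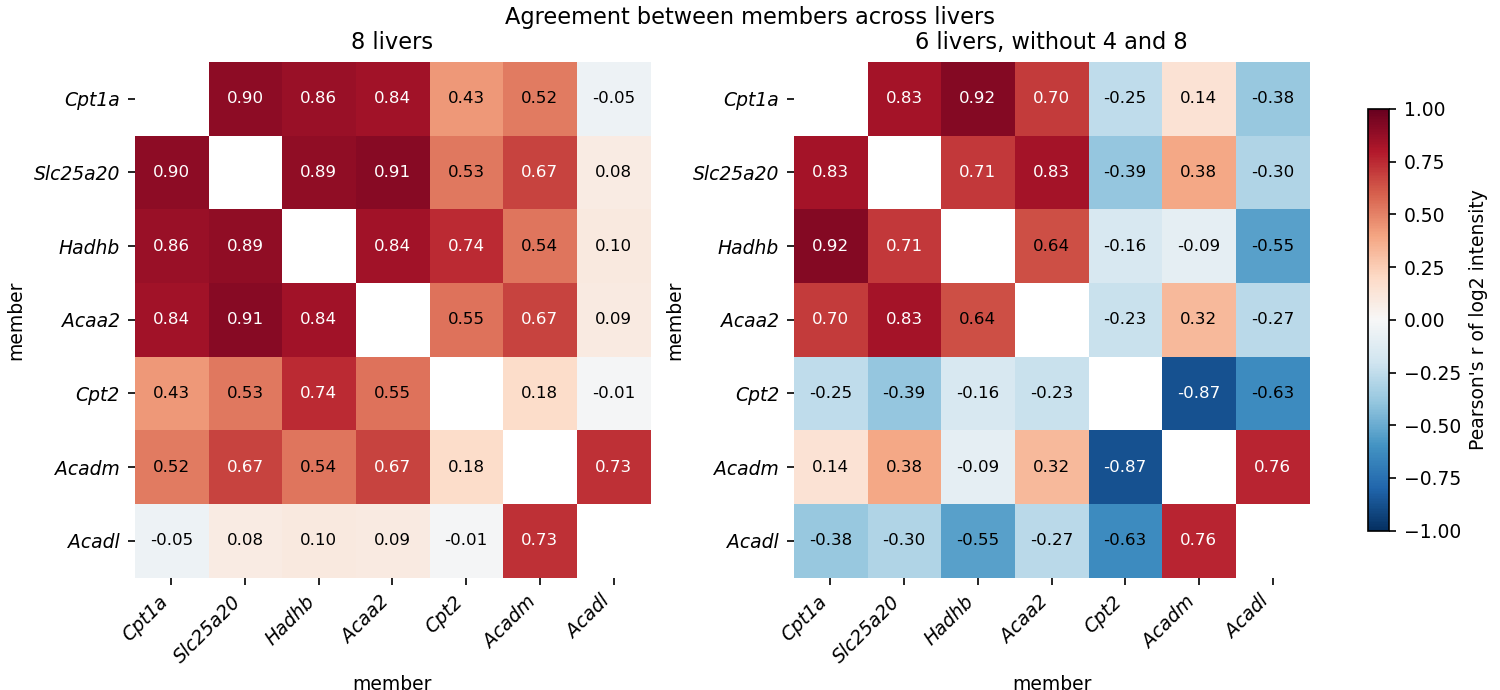
Pearson's r of log2 intensity for the 21 pairs of tested members over all 8 livers (left) and over the 6 livers other than 4 and 8 (right). Cpt1a, Slc25a20, Hadhb and Acaa2 form the block of high r in both panels, from 0.841 to 0.914 on the left and from 0.644 to 0.921 on the right, while Cpt2 turns negative with all others on the right.

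The relation of Cpt2 to the other members depended on which livers were left out. Over the 8 livers its r with the other 6 ran from -0.01 with Acadl to 0.745 with Hadhb (exact permutation p = 0.035, adjusted p = 0.0969), and 0 of 6 passed. Over the 6 livers left without livers 4 and 8 all 6 values were negative, from -0.868 with Acadm (exact permutation p = 0.0125 before adjustment) to -0.16 with Hadhb. The other pairs of Cpt2 had exact permutation p of 0.178 to 0.763 there before adjustment. The Acadm pair was singled out after its values had been seen, and after adjustment over the 21 pairs of those 6 livers its exact permutation p was 0.131. In those livers Cpt2 ran from 4089 in liver 3 to 5779 in liver 5, and Acadm from 7034.5 in liver 3 to 4197 in liver 5. Another subset left out the 2 livers farthest from the median of the first gene, with liver 5 among them in each pair. There all 6 values of Cpt2 were positive, from 0.013 with Slc25a20 to 0.531 with Cpt1a. Over all 21 pairs, the median r fell from 0.55 to -0.09 when livers 4 and 8 were left out, and 11 of the 21 were then negative.

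**Figure D4:**
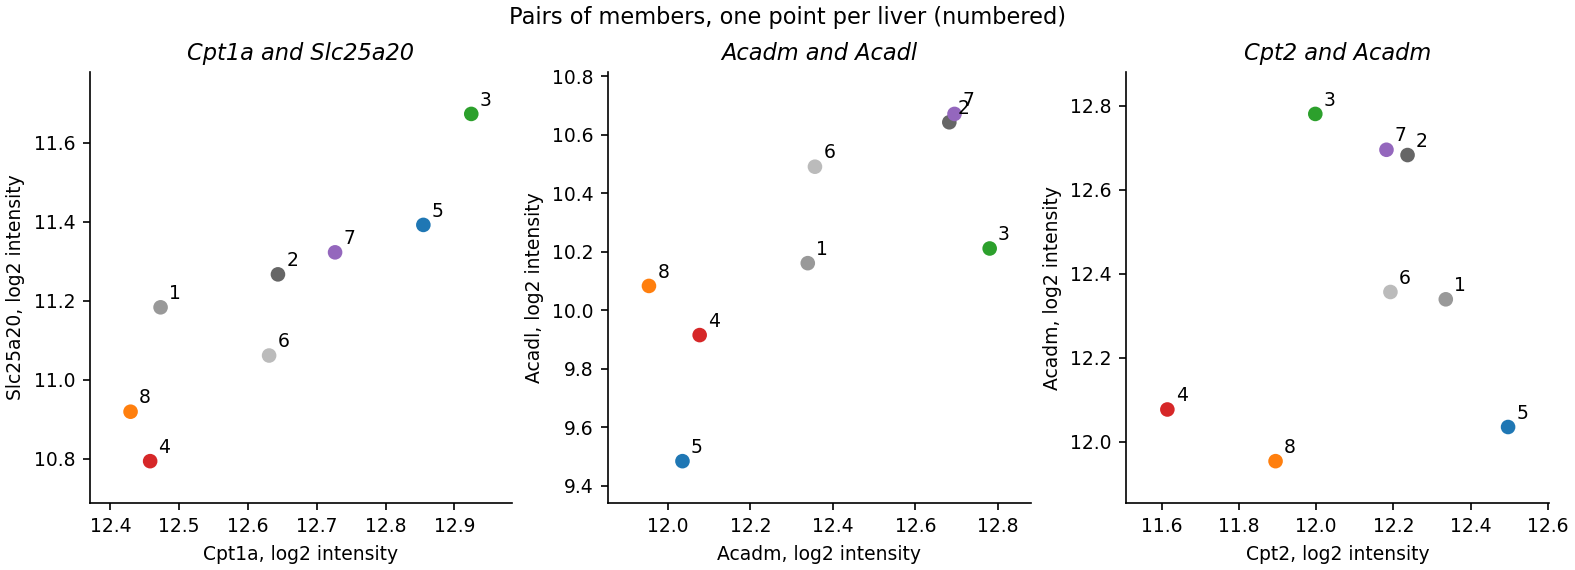
Log2 intensities of 3 pairs of members, with 1 point per liver, numbered. Cpt1a and Slc25a20 rise together (r = 0.897), Acadm and Acadl share low values in liver 5 and high values in livers 2 and 7 (r = 0.732), and Cpt2 and Acadm run in opposite directions apart from livers 4 and 8.

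The members were set against Ppara, the gene of the receptor PPAR-alpha, and Cyp4a14, a fatty acid hydroxylase gene that the receptor is known to induce strongly. Ppara ranged from 678 in liver 6 through a median of 2060.1 to 3925 in liver 3, and Cyp4a14 from 711 in liver 4 through a median of 4937 to 6396 in liver 2. None of the 14 relations passed after adjustment. With Ppara, r ran from -0.44 (Cpt2) to 0.60 (Acadm), and the exact permutation p was at least 0.122 in all 7. With Cyp4a14 all 7 members had a positive r, from 0.44 (Acadl) to 0.917 (Hadhb), and 6 of the 7 had an exact permutation p under 0.05 before adjustment. For Hadhb, p was 0.00454 and the adjusted p 0.0635 by exact permutation, and this relation passed with arrays scaled to a common median and without liver 2 or liver 5. Without livers 4 and 8, which held the lowest Cyp4a14 signals (711 and 1458), its r was 0.358, and that of Cpt2 was -0.48.

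Other genes of the pathway also differed in the livers where they were high or low. Outside the members, 55 pathway genes were listed, 33 were named in the annotation and 31 were tested, of which 6 were called by the typical-variance test (11.3% of all tested probe sets were) and 0 by limma. The called genes were all among the regulators and PPAR-alpha targets, with 6 of 11, and the short-chain and auxiliary enzymes (0 of 9), electron transfer genes (0 of 3), genes of fatty acid activation, entry and carnitine supply (0 of 7) and malonyl-CoA control (0 of 1) had none. Livers 4 and 8 held the lowest signals for 13 of the 31, against 11.5% of all tested genes. Liver 3 held the highest for 12, against 11.4% of all tested genes. Within the members' range of mean signal, where not all of the 31 lie, these shares were 21.1% and 19.5%. These counts are given in the deposited scaling only and are not tests.

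Among the short-chain and auxiliary enzymes, Acads, the short-chain acyl-CoA dehydrogenase, had the smallest SD of the list (0.15), from 1358 in liver 4 to 1907 in liver 3, and Pccb, a subunit of propionyl-CoA carboxylase, the largest (0.34), from 560.4 in liver 8 to 1156 in liver 3. Decr1, Mmut and Etfa are named besides, chosen after their values were seen, because they were low in liver 5 and highest in liver 7, as Acadl was. No correlation with Acadl is given for them. In liver 4, where Acadl was low (965), Mmut (1960) and Etfa (4294) lay above their medians. Decr1, the reductase for unsaturated chains, was low in livers 1, 8 and 5 (998 to 1059.6) and highest in liver 7 (1773). Mmut, methylmalonyl-CoA mutase, was lowest in liver 5 (1531) and highest in liver 7 (2383).

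The electron transfer flavoprotein takes electrons from the acyl-CoA dehydrogenases, and its subunit genes had their extremes in different livers. Etfa was lowest in liver 5 (3554) and highest in liver 7 (4959.6), as Acadl was, although livers 1 and 8 were close to liver 5 (3596.5 and 3631). Etfb, whose SD of 0.15 was the smallest of its list, was lowest in livers 4 and 8 (3983 and 4018) and high in livers 3 and 5 (5202.5 and 5121), as Cpt1a was. Etfdh, the oxidoreductase that passes these electrons to ubiquinone, had the largest SD of the list (0.23) and was lowest in liver 5 (1730.4) but highest in liver 8 (2756).

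In fatty acid activation and carnitine metabolism, the largest SD was that of Crat, carnitine acetyltransferase (0.38), at 298 in liver 4 and 528 to 737 in the others, and the smallest that of Acsl5, an acyl-CoA synthetase (0.19). Acsl5 ran from 2356 in liver 5 to 3564 in liver 7. Mlycd, malonyl-CoA decarboxylase, which removes the inhibitor of carnitine palmitoyltransferase 1, had its extremes where Cpt2 had them, at 1314 in liver 4 and 2401 in liver 5.

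Of the regulators and PPAR-alpha targets, the 6 called genes were Cyp4a14, Ppara, Vnn1, Angptl4, Cyp4a10 and Sirt3. Cyp4a14 had the largest SD (1.14) and Nr1h3, which encodes LXR-alpha, the smallest (0.16, 1272 to 1744). Vnn1, a pantetheinase, had 604 in liver 2 and only 78.7 in liver 4, and its signals in livers 4 and 8 were below that needed for testing. Angptl4, an inhibitor of lipoprotein lipase, ranged from 299.5 in liver 4 to 1058 in liver 2 on the brightest of its 4 probe sets. Another tested Angptl4 probe set was not called (SD 0.39, adjusted p = 0.131, typical-variance test), so the call rests on the brightest. Cyp4a10, whose probe set shares sequence with its family, ranged from 1819.6 in liver 4 to 6252 in liver 2. Sirt3, a mitochondrial deacetylase, followed neither order, from 682 in liver 2 to 1415 in liver 6 (adjusted p = 0.0472, typical-variance test).

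**Figure D5:**
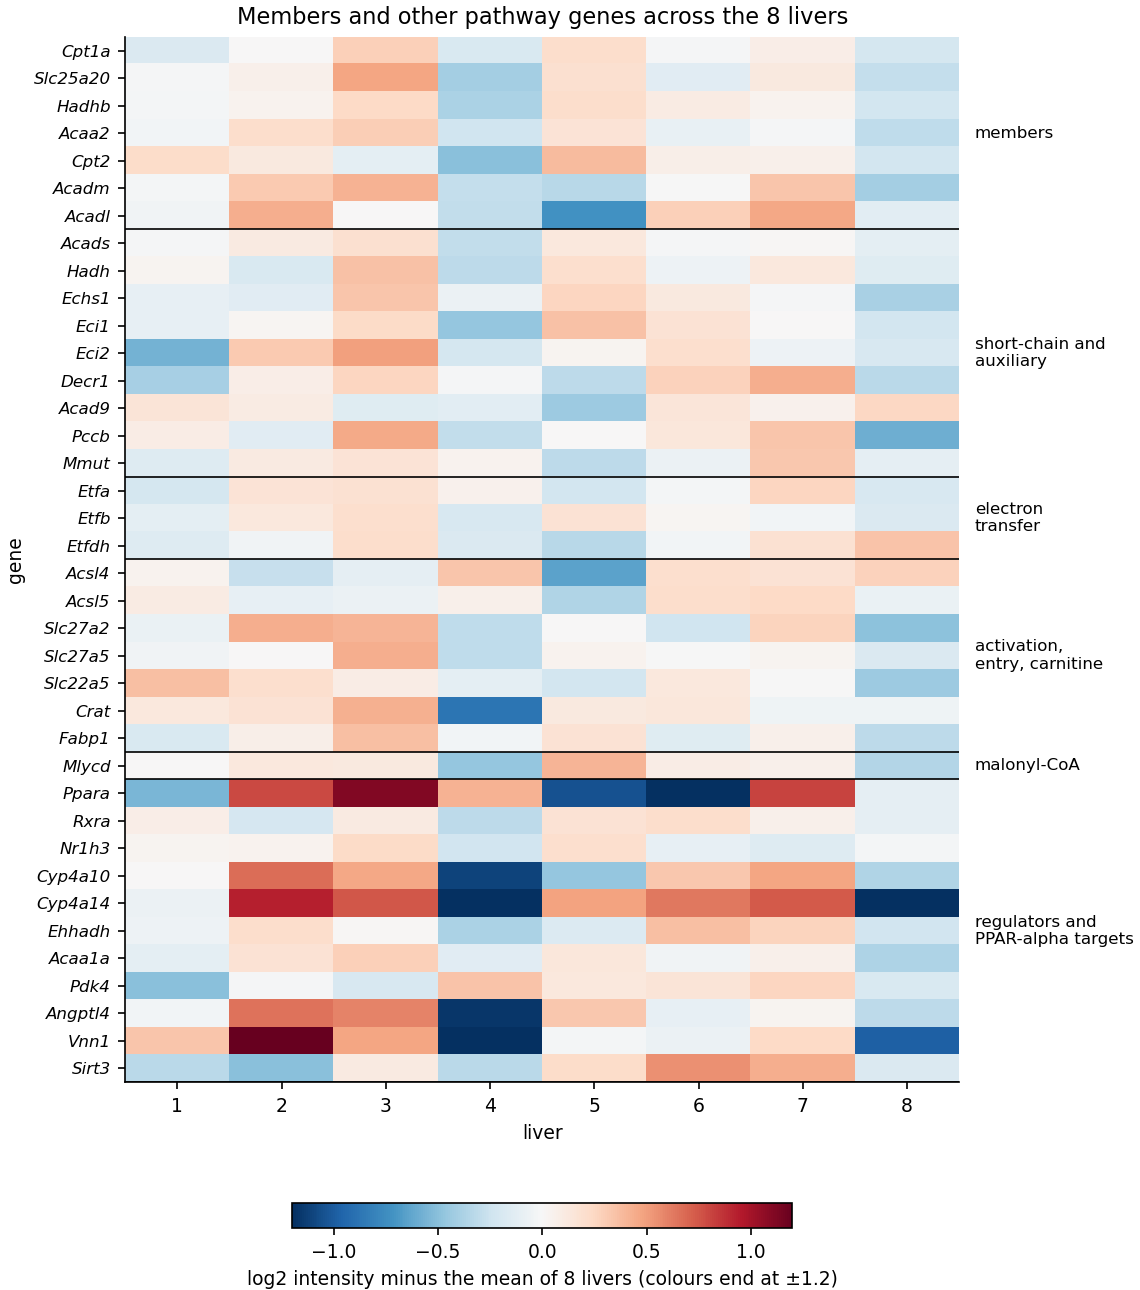
Log2 intensity minus its mean over the 8 livers for the 7 tested members and 31 other pathway genes (rows, grouped by list) in livers 1 to 8 (columns); colours end at ±1.2. Livers 4 and 8 hold the lowest signals in 5 of the 7 member rows and 13 of the 31 others, Acadl, Acadm, Decr1, Mmut and Etfa are low in liver 5, and the largest SDs are those of Cyp4a14 (1.14), Ppara (0.94) and Vnn1 (0.90).

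The genes whose pattern was most like the mean of the members' centred log2 signals over the 8 livers began with Serpinf1 (r = 0.977) and Man1a (0.973). They included Txnrd2, the mitochondrial thioredoxin reductase (0.97), Cyb5b, a cytochrome of the outer membrane (0.964), and the respiratory chain genes Uqcrh (0.96) and Ndufb10 (0.959). They also included Hsd17b4, the peroxisomal bifunctional enzyme (0.966), and Hao2, a peroxisomal hydroxyacid oxidase (0.963), and the 10 were completed by Ryk (0.956) and Sun2 (0.953). Hsd17b4 ranged from 3363.5 in liver 4 to 6424.5 in liver 3. The 5 genes with the most opposite pattern were Tap2, a peptide transporter of antigen presentation (r = -0.994), Grn, progranulin (-0.987), the guanylate-binding protein genes Gbp7 (-0.985) and Gbp3 (-0.983), and Samhd1 (-0.984). Tap2 ranged from 221 in liver 2 to 1859 in liver 4, with 1348.5 in liver 8. These 15 genes were picked for their r among 4819, so the values are a description with no test.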

How the data were processed

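RNA of 8 liver samples was measured on Affymetrix U74Av2 arrays read with a Hewlett-Packard GeneArray scanner, per the labels. The authors deposited 1 linear intensity per probe set and array; no source used here states the image software or the scaling target, and no detection calls were used. Trimmed means (2% off each end) differed between arrays by 0.00896%, so the deposited intensities were used without rescaling, which makes each level relative to the rest of its array. Of 12422 non-control probe sets, 10833 had 1 gene symbol, 396 several and 1193 none; 66 controls were left out. Intensities under the 10th percentile (11.2) were raised to it before log2, and a gene was represented by its brightest tested probe set. Variances were tested with limma 3.58.1 in R 4.3.3 (trended, robust prior) and against a loess curve (span 0.3), at an adjusted p of 0.05. No correlation would have been pooled where a gap with at least 2 livers on each side exceeded 50% of the range; none did in the deposited scaling. The tests were tested on simulated data: both variance tests recovered raised variances where all others were equal, but with the real spread of variances limma had little power and the typical-variance test also called unaltered probe sets, so its calls mean more variable than usual at that signal. Named genes were all members, the called genes and those of smallest and largest SD in each pathway list, and the 10 most and 5 least alike genes; the report says where others were chosen after their values were seen. Members, lists and tests were chosen with earlier results of these data known. Alternatives were median scaling, quantile normalization, no signal filter, a floor at the 20th percentile (26.1), a span of 0.5, the mean of a gene's probe sets, Spearman's rho, and leaving out livers.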

Additional observations from a re-analysis of the deposited data

Results flagged for a closer look

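In 38 genes examined, the 7 tested members and 31 other pathway genes, the gap between the outermost liver and its neighbour was set against the range of the 8 log2 signals. No member exceeded the critical value of Dixon's test for 8 samples, and 2 other genes did. Crat was at 298 in liver 4 and next at 528, a gap of 0.631 of the range. Slc27a5, a liver fatty acid transport and bile acid conjugation gene, was at 11011 in liver 3 and next at 8389, a gap of 0.529 of the range. Chance alone flags about 1 in 20 groups, and 2 of 38 is close to that.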

How the results depend on the processing

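The typical-variance count of 1 member, Acadl, was the same with median scaling, quantile normalization, no filter, the higher floor, the wider span and without livers 4 and 8, and it ranged from 0 to 1 with single livers left out. The limma count was 0 members in every alternative run, although the number of probe sets it called in all was 10 after median scaling, 4 when liver 2 was left out and 2 when liver 4 was, against 0. The count of 6 correlated member pairs was also 6 with median scaling (all 6 shared), 4 by Spearman's rho, 1 after quantile normalization, 0 without livers 4 and 8, and between 0 and 6 with single livers left out. Quantile normalization split 6 of the 21 pairs into separate clusters, for which no test was run, among them those of Acaa2 with Cpt1a, Slc25a20 and Hadhb. No relation with Ppara or Cyp4a14 passed, except 1 (Hadhb with Cyp4a14) under median scaling, and 0 to 1 did with single livers left out; without liver 1 the 7 relations with Cyp4a14 fell into separate clusters and were not tested, nor were the 7 with Ppara without livers 4 and 8, and 12 of 14 were tested after quantile normalization. Without livers 4 and 8, r turned to -0.868 for Cpt2 and Acadm, -0.158 for Cpt2 and Hadhb and -0.48 for Cpt2 and Cyp4a14, and with single livers left out that of Cpt2 and Acadm ranged from -0.13 (without liver 4) to 0.537 (without liver 5), against 0.182 over all 8. The cause of these changes was not tested. No paired analysis was possible because there is 1 group. Scaling was varied for the counts of members lowest in livers 4 and 8 or highest in liver 3 after the data had been seen, and the latter went from 5 to 1 after quantile normalization. The number of arrays limits precision, and signals near the floor cannot be told from background.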
